A study of Homo sapiens with 4 samples.

Results

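A set of 8 genes had lower signals in Jurkat cells carrying a hairpin against IKKε than in control cells, whether unstimulated or stimulated. They were CR2, CD38, CD2, LGMN, NINJ2, KIAA0040, LCAT and DIPK2B, 8 of the 13717 genes with 1 symbol that passed a filter on low signals. They were selected on the signal difference between the lines in both treatments, and CD2 on the difference with solvent, so that difference describes them and was not tested. Jurkat is an established human T cell leukaemia line, and IKKε, encoded by IKBKE, is a kinase of NF-κB and interferon signalling. The labels give 4 groups of 1 array each, all of Jurkat cells. For 3 h, control cells and shIKKE cells each received either solvent or ionomycin at 0.5 uM together with PMA at 10 ng/ml. PMA and ionomycin mimic signals of the T cell receptor. The construct of the control line is a vector in the titles and a control shRNA in the design text, and neither source says whether a line is 1 clone or a pool of infected cells. With 1 array a group there was no replicate, and the differences between arrays below carry no p-value.

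As background, the genes encode proteins of the cell surface, the lysosome and the secretory route. CR2 (CD21) binds fragments of complement C3 and is best known from B cells. CD38 is a surface enzyme that breaks down NAD and forms cyclic ADP-ribose, and it marks thymocytes, activated T cells and plasma cells. CD2 is the T cell adhesion receptor that binds CD58 on other cells and adds to signalling through the T cell receptor. LGMN, legumain, is a lysosomal protease that cuts after asparagine. NINJ2, ninjurin 2, is a small adhesion protein of the plasma membrane and a relative of NINJ1, the protein that ruptures the membrane of dying cells. LCAT is the plasma enzyme that esterifies cholesterol on high-density lipoprotein and is made chiefly by the liver, and DIPK2B is a poorly characterised protein with a divergent kinase domain, as KIAA0040 is a poorly characterised predicted membrane protein.

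All signals are MAS5 values on a linear scale. Their mean after cutting 2% of the values at each end, computed here, was 500.07 on each array. The median signal was 48.8 to 59.8 on the control arrays and 49.7 to 69.1 on the shIKKE arrays, and the 5′ to 3′ ratio of the ACTB controls lay between 0.244 and 0.401 with no separation of the lines. The main probe set of IKBKE, the targeted gene, read 340 and 520 in control cells and 180 and 248 in shIKKE cells, each pair in the order solvent and stimulation. Its second probe set read 218 and 311 against 287 and 280, so the reduction was seen by 1 of 2 probe sets with solvent. Before log2 was taken, 14.1 was added to every signal, so differences of dim probe sets come out too small.

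The 3 lymphocyte surface receptors were lower in the shIKKE line in each treatment. CR2 read 962 with solvent and 391 with stimulation in control cells, against 74.0 and 45.4 in shIKKE cells. Its log2 difference between lines was -3.47 with solvent and -2.77 with stimulation, a 13.0-fold and an 8.62-fold ratio of the signals themselves. By the mean of both treatments CR2 had the lowest value of all 13717 genes (log2 -3.12). CD38 read 125 and 61.9 in control cells and 5.97 and 15.2 in the shIKKE line, in the order solvent and stimulation, with log2 differences of -2.79 and -1.38. The CD38 signal of the shIKKE line lay at percentile 14.9 of all probe sets of its array with solvent and at 22.5 with stimulation. With shIKKE signals this near the added 14.1, the size of the CD38 difference with solvent depended on the constant, from -4.39 with none to -1.54 with 56.3. CD2 kept a clear signal in both lines. It read 1976 and 760 in control cells and 500.3 and 353 in the shIKKE line, with log2 differences of -1.95 and -1.08. For each of the 3 receptors the lower control array was above the higher shIKKE array, as it was for 13.9% of all genes.

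The promoters of these receptors are shown because the 3 genes were low together. The sequences are RefSeq's for GRCh38.p14, 250 bases before to 50 after each gene's start, 5′ to 3′, with CG dinucleotides in capitals.

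CR2, chr1:207454078-207454377, plus strand: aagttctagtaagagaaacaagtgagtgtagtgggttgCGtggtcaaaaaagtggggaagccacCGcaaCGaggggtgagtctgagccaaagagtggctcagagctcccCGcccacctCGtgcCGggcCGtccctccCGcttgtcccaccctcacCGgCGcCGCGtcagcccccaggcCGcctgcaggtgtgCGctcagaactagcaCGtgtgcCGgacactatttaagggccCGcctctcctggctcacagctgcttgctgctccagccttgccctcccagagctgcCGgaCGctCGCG

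CD38, chr4:15778078-15778377, plus strand: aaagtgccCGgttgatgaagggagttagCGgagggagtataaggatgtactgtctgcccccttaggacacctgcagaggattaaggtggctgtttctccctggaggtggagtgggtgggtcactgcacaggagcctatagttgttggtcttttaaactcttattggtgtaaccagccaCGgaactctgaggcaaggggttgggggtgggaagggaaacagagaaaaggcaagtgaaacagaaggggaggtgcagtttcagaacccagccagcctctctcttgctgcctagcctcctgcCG

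CD2, chr1:116754180-116754479, plus strand: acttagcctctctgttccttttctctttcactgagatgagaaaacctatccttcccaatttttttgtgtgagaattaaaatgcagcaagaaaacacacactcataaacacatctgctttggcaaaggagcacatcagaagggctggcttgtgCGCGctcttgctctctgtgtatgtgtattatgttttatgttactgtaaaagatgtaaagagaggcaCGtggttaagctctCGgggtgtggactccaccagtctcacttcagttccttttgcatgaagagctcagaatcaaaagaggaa

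The CR2 promoter is rich in CG (21 dinucleotides, 64.0% G+C), while those of CD38 (4 dinucleotides, 54.0% G+C) and CD2 (4 dinucleotides, 42.3% G+C) are poor in it. The medians over 35116 promoters are 14 dinucleotides and 58.7% G+C, so the 3 promoters do not share this composition. Among the 8 genes, 5 had a promoter in the table (6 promoters, with 2 starts of NINJ2). None of the 6 held a TATA box (TATAAA), an AP-1 motif (TGANTCA), an EGR motif (GCGNGGGCG), a RUNX motif (TGTGGT) or the NF-κB motif on either strand, where 11.5%, 7.71%, 9.43%, 13.1% and 11.3% of all promoters hold them. The core GGAAA of NFAT sites was in 3 of the 6 (CD38, KIAA0040 and 1 of NINJ2), against 61.2% of all promoters. The GC box GGGCGG was in 2 (CR2 and KIAA0040), against 45.0%. These are matches of letters in 300 bases and say nothing of whether a factor binds there or elsewhere. A GGAAA match can lie inside a longer NF-κB match, and a GC box can overlap an EGR match.

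The protease gene and the ninjurin gene followed. LGMN read 1426 and 419 in control cells and 177 and 188 in the shIKKE line, with solvent and stimulation in that order. Its log2 difference was -2.91 with solvent and -1.10 with stimulation. The shIKKE values of LGMN lay close together, and the smaller difference with stimulation went with the lower control value. NINJ2 read 1078 and 722 in control cells and 220.03 and 238 in the shIKKE line, with log2 differences of -2.22 and -1.55. The arrays of the lines did not overlap for either gene, with the control line the higher, as for 13.9% of all genes. LGMN and NINJ2, like CD38 and CD2, had 1 probe set each, so none of the 4 has a second measurement on the array.

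The other 3 genes were, like CD38, dim by their mean log2 signal. KIAA0040 read 217 and 162 in control cells and 63.9 and 17.8 in the shIKKE line, with log2 differences of -1.57 and -2.47. LCAT read 54.9 and 127 in control cells and 10.7 and 14.2 in the shIKKE line, with log2 differences of -1.48 and -2.32. DIPK2B read 65.1 and 87.0 in control cells and 7.16 and 10.6 in the shIKKE line, with log2 differences of -1.90 and -2.03. The main probe sets of CD38, LCAT and DIPK2B reached the filter of 56.4 on control arrays only. Their passing it was therefore not independent of the difference between lines. For LCAT and DIPK2B the shIKKE signals lay between percentiles 17.5 and 22.7 of their arrays, and the control signals between percentiles 52.1 and 61.2. The differences of both therefore run from the middle of the array's range to its dim end. KIAA0040 and LCAT had the larger difference with stimulation, and CR2, CD38, CD2, LGMN and NINJ2 with solvent. The differences of DIPK2B were of similar size, and the larger was with stimulation on the log2 scale and with solvent by the ratio of signals (9.09 against 8.17).

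**Figure D1:**
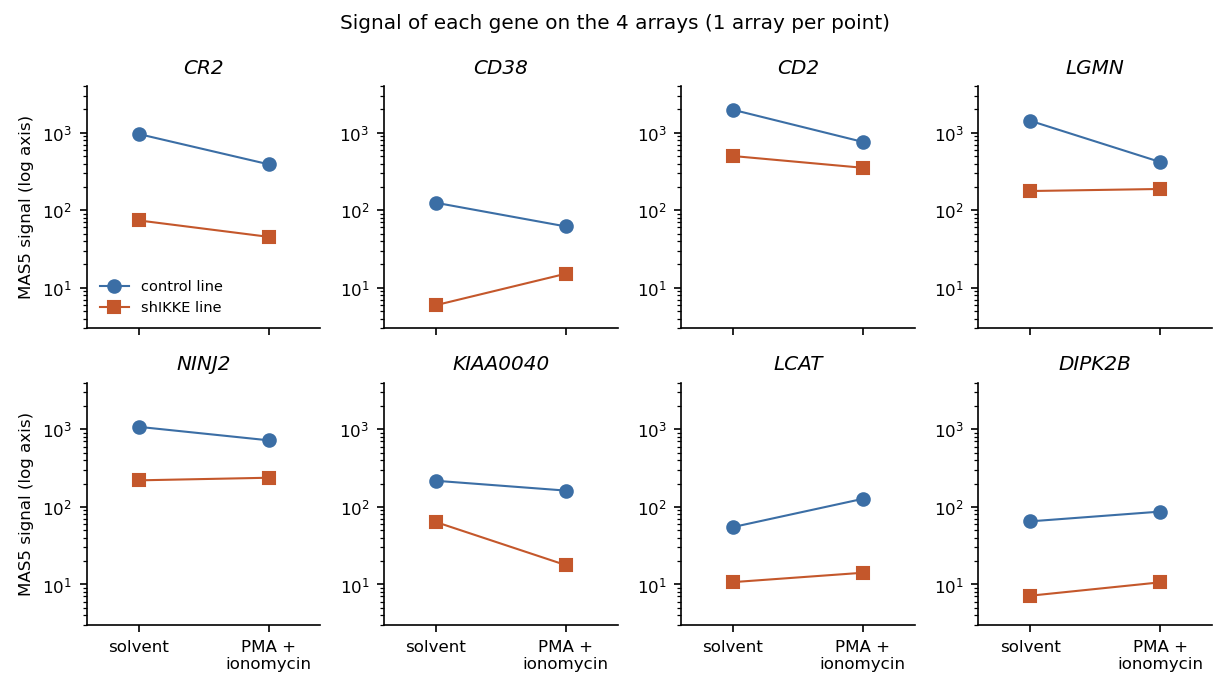
MAS5 signal (log axis) of the main probe set of each of the 8 genes with solvent and with PMA and ionomycin, with the control line as circles and the shIKKE line as squares, 1 array per point. In every panel both circles lie above both squares, from CR2 (391 or more against 74.0 or less) to CD2 (760 or more against 500.3 or less). The same order held for 13.9% of all genes.

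With solvent, shIKKE cells had a signal lower by 2-fold or more for each of the 8 genes and for 6.68% of all genes. With stimulation they did for each of the 8 and for 2.37% of all genes. In both treatments together 84 genes met the limit (0.612%), and the 8 are among them by choice. Both control arrays exceeded both shIKKE arrays for the 8 and for 13.9% of all genes. The median log2 difference of the 8 was -2.09 with solvent and -1.79 with stimulation, beside -0.05 and 0.03 over all genes. The choice named no size. Of the 8, CD2 (-1.08) and LGMN (-1.10) came nearest to the 2-fold limit, both with stimulation. Over all genes ITPR3-AS1 (-1.63 with solvent and -1.00214 with stimulation) lay just inside it, and EFR3B (-0.9999 with solvent and -1.69 with stimulation) just outside.

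Such differences were more frequent among dim genes. When genes were ordered by mean log2 signal and cut into 4 bins of equal size, 14.1% of the dimmest bin were at least 2-fold lower with solvent and 1.31% in both treatments. In the brightest bin these shares were 1.28% and 0.146%. CD38, KIAA0040, LCAT and DIPK2B belong to the dimmest bin, CR2, LGMN and NINJ2 to the next (7.67% and 0.671%), and CD2 to the one above (3.70% and 0.321%). None of the 8 is in the brightest bin.

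**Figure D2:**
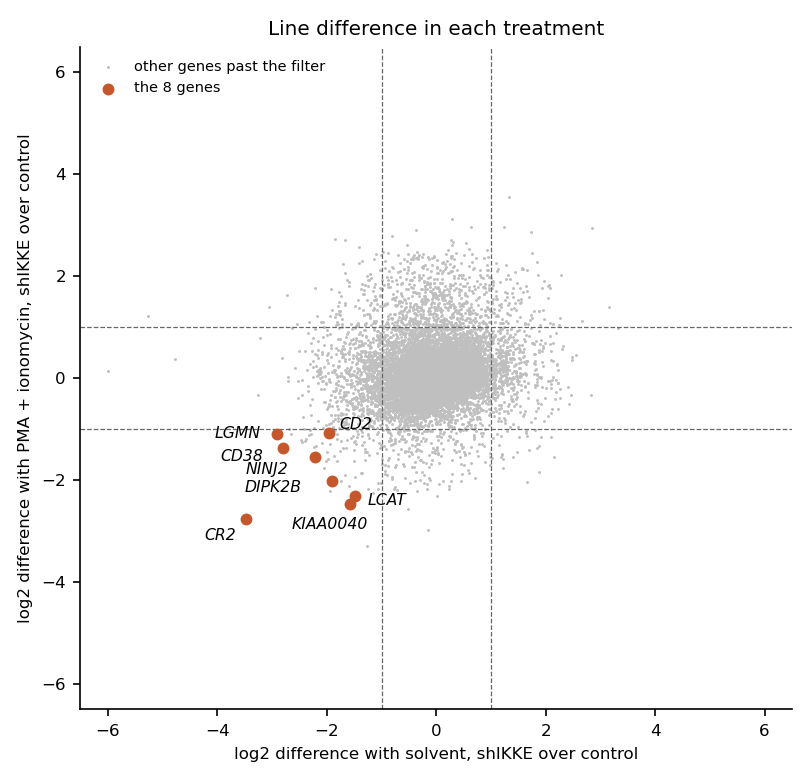
Log2 difference of the shIKKE over the control line with solvent (x axis) and with PMA and ionomycin (y axis) for 13717 genes (grey) and the 8 genes (orange), with dashed lines at 2-fold. The 8 lie in the lower left, past 2-fold on both axes, with CR2 (-3.47 and -2.77) farthest out.

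The second probe sets did not repeat the pattern throughout. Of the 8 genes, 4 had more than 1 probe set, with 6 further probe sets in all, of which only 1 of KIAA0040 passed the filter. That probe set read 124 and 11.3 in control cells and 49.6 and 45.9 in the shIKKE line. Its log2 difference was -1.12 with solvent and 1.24 with stimulation, opposite in direction to the main probe set of KIAA0040 with stimulation. The second CR2 probe set read 12.6 and 0.588 in control cells and 7.39 and 3.00 in the shIKKE line, with log2 differences of -0.31 and 0.22. The second LCAT probe set read 15.0 and 23.4 against 8.73 and 53.0, with log2 differences of -0.35 and 0.84. Of the 3 further DIPK2B probe sets, all under the filter, 2 were higher in the shIKKE line in both treatments (log2 0.50 and 1.55, and 0.68 and 0.84) and 1 differed by -0.05 and 0.07. With stimulation, the second LCAT probe set (53.0) and a further DIPK2B probe set (54.8) lay just under the filter of 56.4 in shIKKE cells. Over the 6, shIKKE cells had the lower signal in 4 with solvent and in 0 with stimulation. The word throughout thus holds for the main probe set of each gene and not for these. The median over all of a gene's probe sets, an alternative chosen after seeing the data, gave log2 differences of 0.32 and 0.46 for DIPK2B, -0.91 and -0.74 for LCAT, -1.34 and -0.61 for KIAA0040, and -1.89 and -1.27 for CR2.

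**Figure D3:**
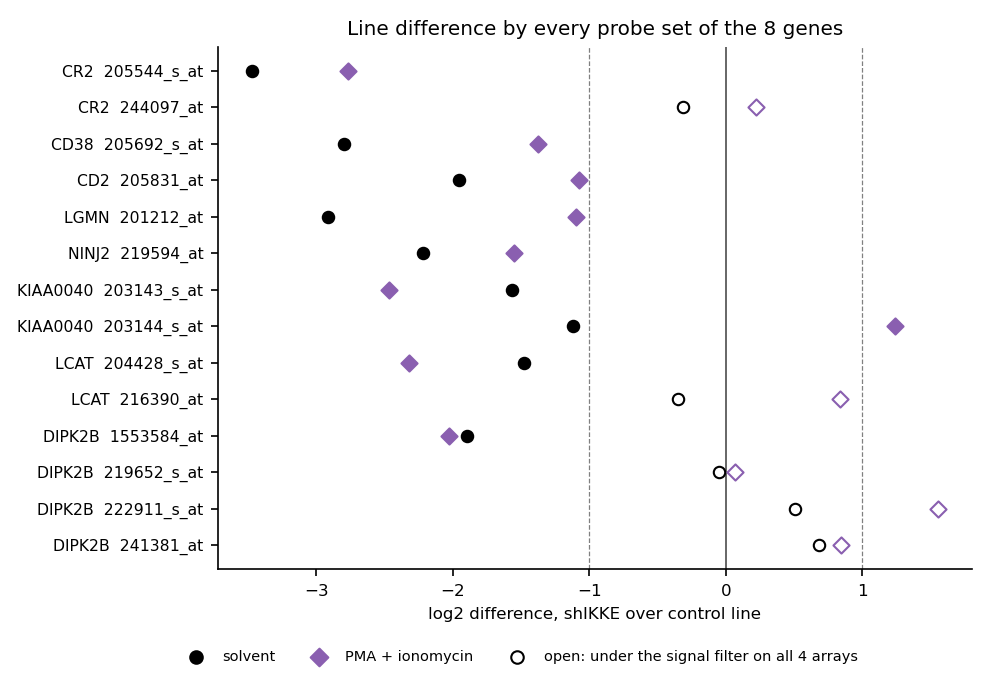
Log2 difference of the shIKKE over the control line by each of the 14 probe sets of the 8 genes, with circles for solvent and diamonds for PMA and ionomycin, open where all 4 signals are under the filter. The main probe sets lie left of -1 in both treatments, while the second KIAA0040 probe set lies at -1.12 and 1.24 and the open symbols lie between -0.35 and 1.55.

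The response to stimulation was a separate comparison, in which the 8 genes did not move as one. In the control line CR2 (log2 -1.27), CD2 (-1.36) and LGMN (-1.73) were at least 2-fold lower with stimulation, 3 of 8, where 6.44% of all genes were. LCAT (log2 1.03) was at least 2-fold higher, 1 of 8 against 7.57% of all genes. CD38 (-0.87), NINJ2 (-0.57), KIAA0040 (-0.39) and DIPK2B (0.35) lay within 2-fold. CD38 passed it with no pseudocount (-1.01) and after quantile normalization (-1.08), and KIAA0040 by the median of its probe sets (-1.42), each making the count 4 of 8. This response and the line difference with solvent share the control array with solvent, on which 6 of the 8 had their highest signal, so the counts are not independent of how the genes were chosen.

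In the shIKKE line KIAA0040 (log2 -1.29) was at least 2-fold lower with stimulation, 1 of 8 against 2.68% of all genes, and none was 2-fold higher, where 10.3% of all genes were. CR2 (-0.57), CD38 (0.55), CD2 (-0.49), LGMN (0.08), NINJ2 (0.11), LCAT (0.19) and DIPK2B (0.22) lay within 2-fold. The median response of the 8 was -0.72 in control cells and 0.09 in the shIKKE line, beside -0.07 and -0.01 over all genes. The responses of both lines share arrays with the line differences by which the genes were chosen. These counts and medians are therefore not independent of the choice either. The difference of the responses of the lines was not tested.

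Averaged over the lines, 0 of the 8 genes responded to stimulation by limma's additive model of line and stimulation with Benjamini-Hochberg adjustment over 13717 genes, and 2 had an unadjusted p under 0.05. Over all genes 1 passed (0.00729%), and 1887 of the 13717 had an unadjusted p under 0.05 in the same limma model. The average log2 response was -0.92 ± 0.30 (SE) for CR2 (limma, adjusted p = 0.31) and -0.92 ± 0.32 for CD2 (limma, adjusted p = 0.331). For LCAT it was 0.61 ± 0.31 (limma, adjusted p = 0.462). The rest had limma adjusted p from 0.366 for KIAA0040 to 0.881 for CD38. The estimate of the average response does not use the difference between lines that chose 7 of the genes, but CD2 was chosen on the solvent arrays alone. The error of the estimate rests on 1 residual degree of freedom, the difference between the lines' responses. That equals the line difference with stimulation minus that with solvent, so the error does use the values by which the genes were chosen. This error mixes array noise with any true difference of the responses and is not a spread between replicates. No label ties the arrays to independent cultures. When the prior variance was a function of signal level, CD2 was 1 of 1044 genes to pass (limma, adjusted p = 0.0086, range over the alternatives 0.0086 to 0.451).

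**Figure D4:**
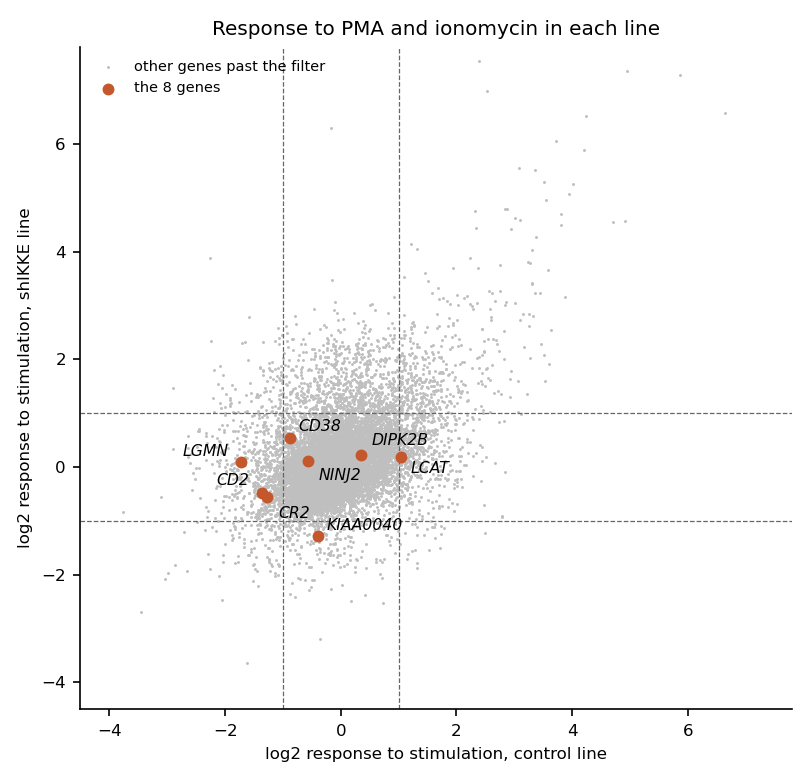
Log2 response to PMA and ionomycin in the control line (x axis) and in the shIKKE line (y axis) for 13717 genes (grey) and the 8 genes (orange), with dashed lines at 2-fold. LGMN, CD2 and CR2 lie left of -1 and LCAT just right of 1, while KIAA0040 alone of the 8 lies below -1 on the y axis.

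Among themselves the 8 genes fell into several shapes over the 4 arrays. By the Euclidean distance of log2 values centred on each gene's mean, CD38 and NINJ2 were closest (0.428), followed by LCAT and DIPK2B (0.486), and CR2 and LCAT were farthest apart (2.10). The nearest other genes were found by the same distance over the same 4 arrays. For CD2 these were PDK1 (0.168), a kinase that restrains pyruvate dehydrogenase, and RAB37 (0.211). PDK1 read 3820 and 1483 in control cells and 941 and 782 in the shIKKE line. For LGMN they were RDM1 (0.174) and the cholinesterase gene BCHE (0.348), and BCHE was also the second nearest to CR2 (1.30), after LOC154761 (1.23). For NINJ2 they were CAPS2 (0.172) and the antigen-presenting gene CD1E (0.285). For DIPK2B they were the amino acid transporter gene SLC7A3 (0.186) and the chemokine receptor gene CXCR5 (0.225), and CXCR5 read 78.9 and 85.3 against 8.33 and 15.3. For CD38 they were LINC02361 (0.281) and LINC00664 (0.503), for KIAA0040 LOC154761 (0.492) and PATL2 (0.499), and for LCAT GALNT6 (0.353) and ITIH4 (0.359). CR2 had no profile nearer than 1.23, the largest of the 8 distances to a nearest gene.

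Lists of genes that work with CR2, CD2, CD38, LGMN, NINJ2, LCAT or DIPK2B were counted by main probe sets, and no list was made for KIAA0040. Over all 13717 genes, 6.68% were at least 2-fold lower and 596 genes higher with solvent, and 2.37% and 822 genes with stimulation. Of 9 measured other complement receptors and regulators (17 listed), 0 were lower in the shIKKE line in either treatment and C3 was higher with solvent, with medians of -0.19 with solvent and 0.05 with stimulation. C3, the complement component whose fragments CR2 binds, read 9.34 and 39.1 in control cells and 38.1 and 61.7 in the shIKKE line, all dim. ITGAM, a chain of another complement receptor, differed by 0.85 and 0.84, and CD59, an inhibitor of the complement pore, by -0.27 and -0.51.

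Of 13 measured SLAM family receptors and CD2 partners (14 listed), solvent gave 2 that were lower by 2-fold or more and stimulation 1, and 0 were higher. CD48, a relative and ligand of CD2 family receptors, read 4253 and 1685 in control cells and 1522 and 1302 in the shIKKE line (log2 -1.47 and -0.37). SLAMF7 differed by -2.05 and -0.47 with signals of 62.0 at most, and CD244, a receptor for CD48, by -0.70 and -1.50. The medians of the 13 were -0.26 and -0.15. A dim second CD48 probe set (signals of 22.1 to 78.3) differed by 0.18 and 1.35, and a dim second CD244 probe set by 1.07 and -1.26. The main probe set of LY9, another SLAM family receptor gene, differed by -0.48 and 0.08, and both of its further probe sets were past 2-fold lower with solvent (-1.06 and -1.60) and not with stimulation (-0.70 and -0.72).

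Of 17 measured genes of NAD metabolism (18 listed), 3 were lower and 1 higher with solvent, and 0 were lower and 2 higher with stimulation, with medians of -0.23 and -0.00275. NT5E, the surface nucleotidase CD73, read 65.5 and 164 in control cells and 236 and 757 in the shIKKE line (log2 1.65 and 2.12), the opposite direction to CD38. ENPP3, a surface phosphodiesterase of nucleotides, differed by -1.69 and -0.92, and NMRK2, a kinase of nicotinamide riboside, by 0.69 and 0.97.

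Of 17 measured lysosomal proteases, inhibitors and membrane proteins (20 listed), 0 passed 2-fold between lines in either treatment, with medians of -0.40 and 0.01. The cathepsin genes CTSW (log2 0.87 and 0.51) and CTSL (-0.76 and -0.48) and the cystatin gene CST7 (-0.87 and -0.18) had the largest mean differences, beside -2.91 and -1.10 for LGMN. Of the 5 probe sets of the cathepsin gene CTSB, the main one differed by -0.86 and -0.14, and 3 others were past 2-fold with solvent (-1.03, -1.57 and -1.69) and not with stimulation (-0.15, -0.06 and -0.33). The one at -1.57 read 1396 and 1145 in control cells and 460 and 1097 in shIKKE cells. Of 8 measured genes of membrane rupture and lytic death (9 listed), the gasdermin gene GSDME was lower (log2 -1.75) and the necroptosis effector gene MLKL higher (1.03) with solvent, and 0 passed 2-fold with stimulation. The medians were -0.52 and 0.08, and GSDMB differed by -0.74 and -0.47.

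Of 10 measured genes of lipoprotein cholesterol transport (15 listed), 2 were lower with solvent and 3 higher with stimulation, with medians of -0.22 and 0.04. The sterol exporter gene ABCG1 read 2755 and 454 in control cells and 464 and 342 in the shIKKE line (log2 -2.53 and -0.39). APOC1, an apolipoprotein gene, differed by 0.96 and 1.99, and LPL, a lipase gene, by -0.81 and 2.78 with signals of 96.8 at most. Of 5 measured DIPK, FAM20 and POMK kinases (8 listed), POMK was higher with solvent (log2 1.25) and 0 passed 2-fold with stimulation, with medians of -0.09 and 0.27. DIPK1B differed by 0.22 and 0.35 and FAM20B by -0.35 and -0.09.

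The nearest measured genes on either side of each of the 8 on its chromosome, were taken in the RefSeq order of GRCh38.p14. Of these 16 neighbours, 2 were at least 2-fold lower with solvent (6.68% of all genes were), 0 were with stimulation (2.37%) and 0 were in both (0.612%). With solvent 2 were higher (596 of all 13717 genes were) and with stimulation 1 (822 of 13717). The medians were -0.21 and 0.19. Beside CR2 lie CD55 (log2 -0.66 and 0.05) and CR1 (-0.44 and 0.31), both complement regulators. Beside CD38 lie its relative BST1 (0.25 and -0.13) and FGFBP1 (1.75 and 0.69), and beside CD2 IGSF3 (0.28 and 0.43) and PTGFRN (1.31 and 2.02). Beside LGMN lie RIN3 (-0.07 and -0.19) and GOLGA5 (-0.54 and 0.19), beside NINJ2 B4GALNT3 (0.70 and -0.99) and LOC105369595 (-0.46 and 0.27), and beside KIAA0040 TNN (-0.60 and 0.72) and COP1 (0.05 and 0.23). The neighbours that were lower with solvent were SLC12A4, next to LCAT (133 and 19.7 with solvent, log2 -2.12, and 0.19 with stimulation), and LINC02595, beyond DIPK2B (88.3 and 11.5 with solvent, log2 -2.002, and -0.61 with stimulation). On the other sides PSMB10, next to LCAT, differed by 0.39 and 0.07 and KDM6A, next to DIPK2B, by -0.36 and 0.17. Unmeasured genes lie between some of the 8 and the neighbour named.

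**Figure D5:**
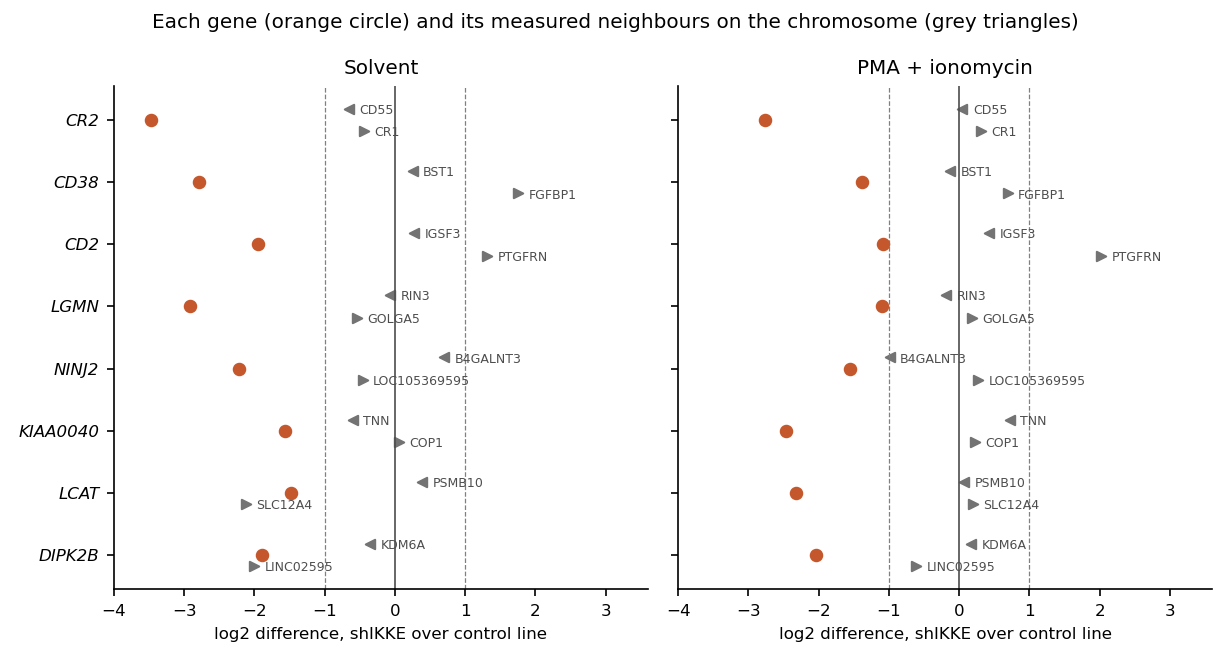
Log2 difference of the shIKKE over the control line with solvent (left) and with PMA and ionomycin (right) for each of the 8 genes (orange circle) and the nearest measured gene before and after it on the chromosome (grey triangles). The circles lie left of -1 in both panels, while 14 of the 16 triangles lie right of -1 with solvent and all 16 do with stimulation.

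The T cell identity of both lines was checked because CR2, CD38 and LGMN are also genes of B cells or myeloid cells. All 17 listed T cell markers were measured, and their summed signal was 100729 and 97586 in control cells and 91340 and 86127 in the shIKKE line. The 3 that passed 2-fold were the CD1 genes of immature thymocytes, lower in both treatments. CD1E read 6870 and 4396 against 1743 and 1451 (log2 -1.97 and -1.59), CD1B 2971 and 2035 against 1042 and 839 (-1.50 and -1.26), and CD1A 3067 and 2616 against 1247 and 941 (-1.29 and -1.46). A second CD1E probe set gave -1.79 and -1.47. The median of the 17 was -0.23 with solvent and -0.21 with stimulation, and 14 lay within 2-fold in each.

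Of 10 B cell markers 5 passed the filter and 0 of them passed 2-fold (medians -0.50 and -0.27), with a summed signal over the list of 1057 and 1293 in control cells and 886 and 1134 in the shIKKE line. CD72 differed by -0.65 and -0.63, BLK by -0.50 and -0.41 and CD79A by 0.57 and 0.23, while no probe set of the defining markers MS4A1 and PAX5 passed the filter. Of 10 myeloid markers 3 passed the filter, with medians of -1.001 and 0.96 and a summed signal of 178 and 180 against 195 and 326. Of those, ITGAM (log2 0.85 and 0.84), MPO (-2.21 and 0.96) and CSF1R (-1.001 and 2.41) had signals of 107 at most. CD14 read 8.10 at most. A second MPO probe set, under the filter, differed by 1.43 and 0.68. Of 8 natural killer markers 3 passed the filter and 0 passed 2-fold (medians -0.32 and 0.06, summed signal 664 to 953). NCAM1 differed by -0.99 and 0.20, PRF1 by 0.87 and -0.33 and NKG7 by -0.32 and 0.06. Another NCAM1 probe set past the filter went the other way in each treatment (0.97 and -0.76). Of 9 erythroid and epithelial markers 3 passed (medians -0.04 and 0.19; summed signal 237 to 496), and KRT18 was lower with stimulation (-1.53). In such bulk samples fewer cells of a type and less RNA per cell cannot be told apart, and the part of any other cell type in the differences of the 8 genes was not tested.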

How the data were processed

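RNA of 4 Jurkat samples was hybridised to 4 one-colour oligonucleotide arrays. The deposited values are intensity per probe set, MAS5 signals per the submitters' processing notes, with version, target and detection calls not given in the sources used here. Of 54675 probe sets, 62 array controls were left out, and 41091 had 1 gene symbol in the platform annotation, 1801 several and 11721 none; all 8 genes matched RefSeq by gene ID. Log2 of the signal plus 14.1 (25th percentile of all signals) was used, for probe sets reaching 56.4 (the median) on at least 1 array. Where a gene had several probe sets, the brightest by mean log2 signal stood for it and is called main. Genes were counted at 2-fold. For the average response limma 3.58.1 was run in R 4.3.3 with lmFit and eBayes (two-sided, adjusted p at most 0.05), checked on simulated data. Python 3.11.15, pandas 2.3.3, numpy 2.4.6 and matplotlib 3.10.9 were used.

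The 8 genes and the lists were chosen with earlier results of these data known. Named were all 8 genes by every probe set, the 2 nearest profiles of each, up to 3 genes of each list with the largest mean line difference, the nearest measured gene on each side, and IKBKE; other genes named, CD14, CTSB, LY9, MS4A1 and PAX5 among them, and second probe sets of list genes were added after their values were seen. The alternatives were no pseudocount, a pseudocount of 56.3, quantile normalization, scaling to the 75th percentile, the median of a gene's probe sets and, for the limma model, cyclic loess, no filter and a variance that follows the level. The number of arrays limits the precision.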

Additional observations from a re-analysis of the deposited data

Results flagged for a closer look

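For 3 of the 8 genes the responses to stimulation had opposite signs in the lines, with 1 pair of arrays per line. The share of all genes with opposite signs was not counted, so the 3 are not shown to be unusual. The log2 response of the shIKKE line minus that of the control line was 1.42 for CD38 (0.55 against -0.87), 1.81 for LGMN (0.08 against -1.73) and 0.67 for NINJ2 (0.11 against -0.57). The shIKKE responses of LGMN and NINJ2 are close to 0, and both turned negative after quantile normalization (-0.21 and -0.13) and with scaling to the 75th percentile (-0.04 and -0.02). For the second probe set of KIAA0040 the lines differed in opposite directions in the 2 treatments, and the difference with stimulation minus that with solvent was 2.36 (1.24 against -1.12). Its low signal of 11.3 on the stimulated control array stands beside 124, 49.6 and 45.9 on the others. None of these differences was tested.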

How the results depend on the processing

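Under the 5 alternatives, the log2 difference between lines was negative in all 80 values of the 8 genes (each gene, treatment and alternative) and past 2-fold in 74. The genes were selected on this difference, and another pseudocount cannot change its sign. The count of negative values is therefore no separate support. With the pseudocount of 56.3, 5 of the 8 were past 2-fold with stimulation, since CD38 (-0.73), CD2 (-0.997) and LGMN (-0.96) were not, and LCAT (-0.73) and DIPK2B (-0.94) were not with solvent. By the median of the probe sets past the filter, KIAA0040 was not (-0.61 with stimulation). By the median of all probe sets, chosen after seeing the data, 5 of the 8 were past 2-fold with stimulation, and DIPK2B turned to 0.32 with solvent and 0.46 with stimulation. The count of LCAT as higher in the stimulated control line went to 0 with the larger pseudocount, quantile normalization, 75th percentile scaling and the median of all probe sets. The count of KIAA0040 as lower in the stimulated shIKKE line went to 0 with the larger pseudocount and by either median. With no pseudocount CD38 was 2-fold higher there (log2 1.35, count 1). Over all genes, the 84 lower in both treatments became 142 with no pseudocount and 33 with the larger one. With the larger one the counts lower and higher became 422 and 215 between lines with solvent (916 and 596 in the report's setting), 108 and 261 with stimulation (325 and 822), 436 and 541 for the response of the control line (884 and 1039) and 129 and 691 for that of the shIKKE line (368 and 1417), and 794 and 908 for the last after quantile normalization. The share of higher among calls moved by over 10 points with another scaling: from 39.4% to 49.6% between lines with solvent (75th percentile), from 71.7% to 59.3% with stimulation (quantile), and for the responses from 54.0% to 40.6% (quantile) in the control line and from 79.4% to 53.3% (quantile) in the shIKKE line. The 75th percentile scaling moved the median log2 response of all genes in the shIKKE line from -0.01 to -0.14. In the limma model 573 genes passed with the larger pseudocount and 1044 with a variance that follows the level, and 0 with no pseudocount, quantile normalization, 75th percentile scaling, the median of probe sets, no filter or cyclic loess. At an unadjusted p under 0.05 these 6 gave 1591 to 2150 genes. The cause of these changes was not tested. No paired analysis was possible because the labels carry no replicate numbers and each group has 1 array; the limma model already holds the line as a term. No array could be left out.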
